A study of Homo sapiens with 12 samples.

Results

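The CD133 effect, the difference in gene expression between CD133+ and CD133- cells, was compared between the gastric cancer cell lines KATO-III and SNU-216. For each gene, the log2 difference of CD133+ minus CD133- cells in SNU-216 was subtracted from that in KATO-III. This interaction is positive where the CD133+ cells stood higher, relative to the CD133- cells, in KATO-III than in SNU-216, and negative in the reverse case. The 8 arrays of the 2 lines, of 12 in the series, were chosen by their labelled line. They hold 2 arrays each of KATO-III CD133+, KATO-III CD133-, SNU-216 CD133+ and SNU-216 CD133- cells, and the 4 arrays of SNU-601 entered the estimate of the spread between arrays and the filter on dim genes. Both lines are established from gastric carcinomas, were grown in RPMI1640 medium with calf serum, and carry no named treatment or engineered allele. Cells were stained with a phycoerythrin-labelled antibody to the AC133 epitope of CD133, and the brightest 10% and the dimmest 6% were sorted, so cells between these gates were not measured. Each population is a pool of sorted cells of 1 line. It is not stated whether the 2 arrays of a population came from separate sorts, so p-values measure only the spread between these arrays, which may be technical. A text deposited with the series names SNU201 in the place of SNU-216, and the labels of the arrays were followed.

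CD133 is a membrane glycoprotein with several membrane-spanning segments, encoded by PROM1, that gathers in protrusions of the cell surface and is used to isolate cells with stem cell properties from tumours. Dividing cells switch on DNA replication genes first, largely through E2F factors, and the genes of the mitotic spindle later, through complexes that bind the cell cycle genes homology region (CHR) of their promoters. Epithelial cells of the stomach that leave the cycle and mature instead express mucins, trefoil factors and keratins typical of their lineage.

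The values were intensities, the background-subtracted brightness of the probes of a gene, quantile-normalized and deposited on a linear scale. A floor of 32.7 was set, and between 16320 and 16447 genes lay above it on an array of these lines. Of the 20147 genes tested, 12240 were above the floor on all 8 arrays, 2071 were at the floor on every SNU-216 array and 1685 on every KATO-III array. Of these, 286 were at the floor on all 8 arrays and were tested only through SNU-601. The 2 arrays of a population differed by a median SD of 0.07 on the log2 scale in each of the 4 populations. The epithelial markers TACSTD1 and EPCAM (both names of the EpCAM gene), CDH1, KRT8, KRT18 and KRT19 were above the floor on all 8 arrays. Among markers of other cells, PTPRC, CD3E, COL3A1, PDGFRB, THY1, PECAM1, CDH5 and VWF were above it on none, while CD68 was above it on all 8 and CD14 lay between 835 and 1242 in KATO-III.

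PROM1 was higher in the CD133+ cells of both lines, and by a larger amount in SNU-216. Its intensity was 9513 and 8847 in CD133+ and 4056 and 4493 in the CD133- fraction of KATO-III, and 9273 and 8773 in CD133+ and 2232 and 2219 in CD133- cells of SNU-216. The CD133+ cells of both lines thus lay at similar levels, whereas the CD133- cells of KATO-III lay above those of SNU-216, and the fractions did not overlap in either line. The log2 difference was 1.10 ± 0.06 (limma's SE, n = 2 arrays per population, here and below) in KATO-III and 2.02 ± 0.06 in SNU-216. Their difference, the interaction, was -0.92 ± 0.08, and its adjusted p was 7.46e-05 (limma, Benjamini-Hochberg over all genes tested). The arrays measure pools of cells, so fewer cells expressing a gene and less RNA per cell cannot be told apart.

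More genes had a called interaction than met the rule for alike genes, given below. That rule is the stricter one, so the counts do not weigh difference against likeness. Limma called the interaction at an adjusted p of 0.05 for 6455 of the 20147 genes (32.0%), positive for 3039 (15.1%) and negative for 3416 (17.0%). Of these, 1977 (9.81%) differed by over 2-fold. Of the 12240 measured on all 8 arrays, 4951 were called (40.45%), 2345 positive and 2606 negative. Genes were called higher in CD133+ cells of KATO-III in 18.7% of cases and lower in 20.6%, and in SNU-216 in 14.6% and 14.0%. Both lines called 3155 genes (15.7%), 2083 in the same direction (10.3%) and 1072 in opposite directions (5.32%). The former were 972 genes higher (4.82%) and 1111 lower (5.51%) in CD133+ cells, and the interaction was not called for 1447 of them (7.18%). The latter were 481 genes higher in KATO-III and lower in SNU-216 (2.39%) and 591 with the reverse (2.93%). In absolute terms, the CD133 effect had a median of 0.29 in KATO-III and 0.23 in SNU-216 on the log2 scale. Over the 12240 genes, which are not independent replicates, the effects of the 2 lines had a Pearson's r of 0.203 and a Spearman's rho of 0.22.

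A gene was classed as alike where both lines called it in the same direction, the interaction was not called, and the 95% confidence interval of the interaction lay within 0.5 of 0 on the log2 scale. There were 881 such genes (4.37%), 432 higher (2.14%) and 449 lower (2.23%) in CD133+ cells. Their changes were moderate, since the smaller of the 2 changes had a median of 0.35 on the log2 scale, exceeded 0.5 for 188 genes and 1, a 2-fold change, for 6 (0.0298%). A further 636 genes (3.16%) moved in the same direction with a called interaction, 447 (2.22%) of them more in KATO-III and 189 (0.938%) more in SNU-216. Genes called in 1 line, with a called interaction and an interval of the other line's effect within 0.5 of 0, numbered 2243 (11.1%) for KATO-III, 1064 higher (5.28%) and 1179 lower (5.85%). For SNU-216 they numbered 1325 (6.58%), 722 higher (3.58%) and 603 lower (2.99%). Of these, 565 were at the floor on every SNU-216 array and 307 on every KATO-III array, where the other line had no measured level.

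**Figure D1:**
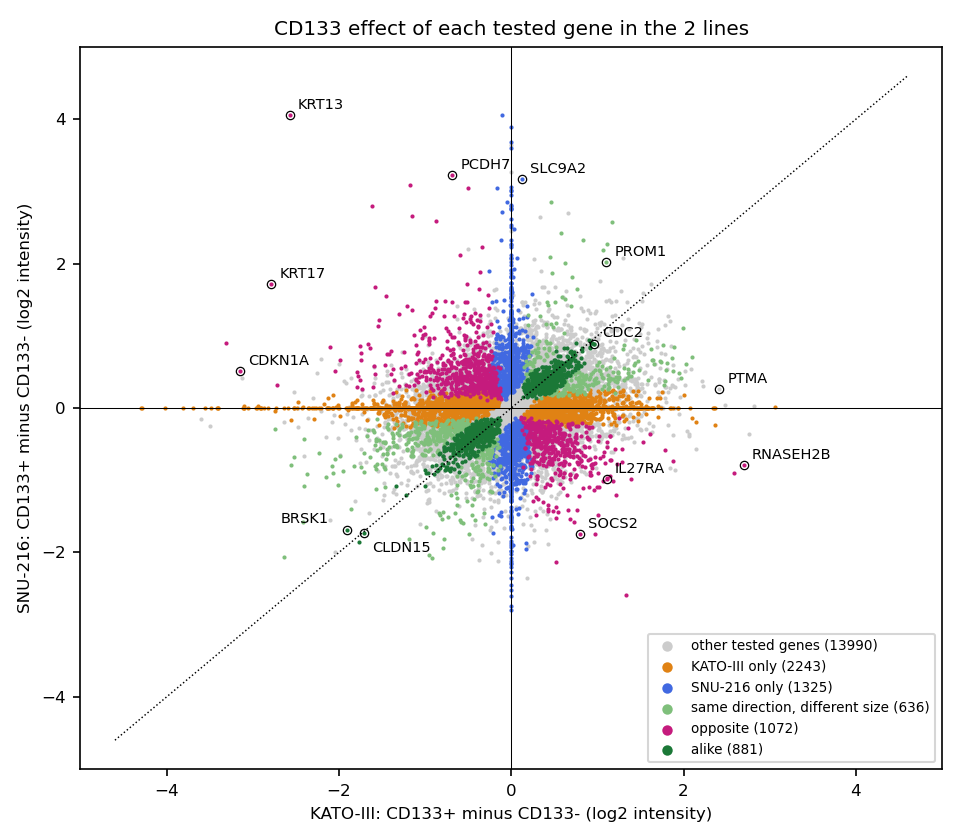
Log2 difference of CD133+ minus CD133- intensity in KATO-III (horizontal) and in SNU-216 (vertical) for each of the 20147 tested genes, coloured by class, with the dotted line marking equal effects. The 881 alike genes lie along the dotted line, the 1072 opposite genes in the upper left and lower right with KRT13 and KRT17 farthest out, and the genes of 1 line along an axis.

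Among named genes above the floor on all 8 arrays, CDC2, ZWINT, PPT1, DDAH1, RBM27, ACTR6, SNRPD1 and MBIP had the largest changes of those that rose alike. CDC2 (now CDK1), the kinase that drives entry into mitosis, had intensities of 1744 and 1689 in CD133+ and 959 and 811 in the CD133- fraction of KATO-III, and 1886 and 1803 and 1035 and 954 in SNU-216. Every CD133+ array was above every CD133- array of both lines. The log2 difference was 0.96 ± 0.10 in KATO-III and 0.89 ± 0.10 in SNU-216, with an interval of the interaction from -0.24 to 0.38. By quantitative PCR, the paper also reported CDC2 higher in CD133+ cells of both lines, but by a larger factor in KATO-III than in SNU-216. ZWINT, a kinetochore protein, stood at 619 and 649 against 374 and 383 in KATO-III and at 747 and 781 against 452 and 467 in SNU-216, and rose by 0.74 and 0.73 (interval of the interaction -0.31 to 0.33). The lysosomal thioesterase PPT1 rose by 0.93 in KATO-III and 0.90 in SNU-216 on the log2 scale, and DDAH1, which degrades an inhibitor of nitric oxide synthase, by 0.93 and 0.90. The same class held the RNA-binding protein RBM27 (0.91 and 0.84), the actin-related ACTR6 (0.82 and 0.82), the core spliceosomal protein SNRPD1 (0.82 and 0.79) and the MAP3K12-binding protein MBIP (0.75 and 0.90). For these 8 genes the interaction was between -0.15 and 0.07.

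Of the genes that fell alike, the tight junction protein CLDN15 and the polarity kinase BRSK1 changed most among named genes above the floor on all 8 arrays. CLDN15 stood at 151 and 169 in CD133+ and 548 and 496 in the CD133- fraction of KATO-III, and at 105 and 101 and 339 and 342 in SNU-216. All CD133+ arrays were below all CD133- arrays, and the log2 differences of -1.71 ± 0.09 and -1.73 ± 0.09 were apart by 0.02 (interval -0.27 to 0.32). BRSK1 stood at 159.8 and 145 against 583 and 559 in KATO-III and at 85.6 and 77.9 against 264 and 260.4 in SNU-216. Its log2 differences were -1.91 and -1.68 (interval of the interaction -0.49 to 0.04). COX19, an assembly factor of cytochrome oxidase, had log2 differences of -1.33 and -1.08, the minus sign marking the lower level in CD133+ cells. The interval of its interaction, -0.48 to -0.03, left out 0, though the interaction was not called (adjusted p 0.0786, limma). Also lower in both were the guanine nucleotide exchange factor PSD4 (-1.01 and -1.08), the zinc finger protein ZNF653 (-0.96 and -0.90), the nuclear protein MIDN (-0.89 and -0.92), and the histone HIST3H2A (-0.86 and -0.87). The chromatin protein HMG20B stood at 697 and 568 against 1329 and 1195 in KATO-III and at 1650 and 1812 against 2904 and 3403 in SNU-216.

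**Figure D2:**
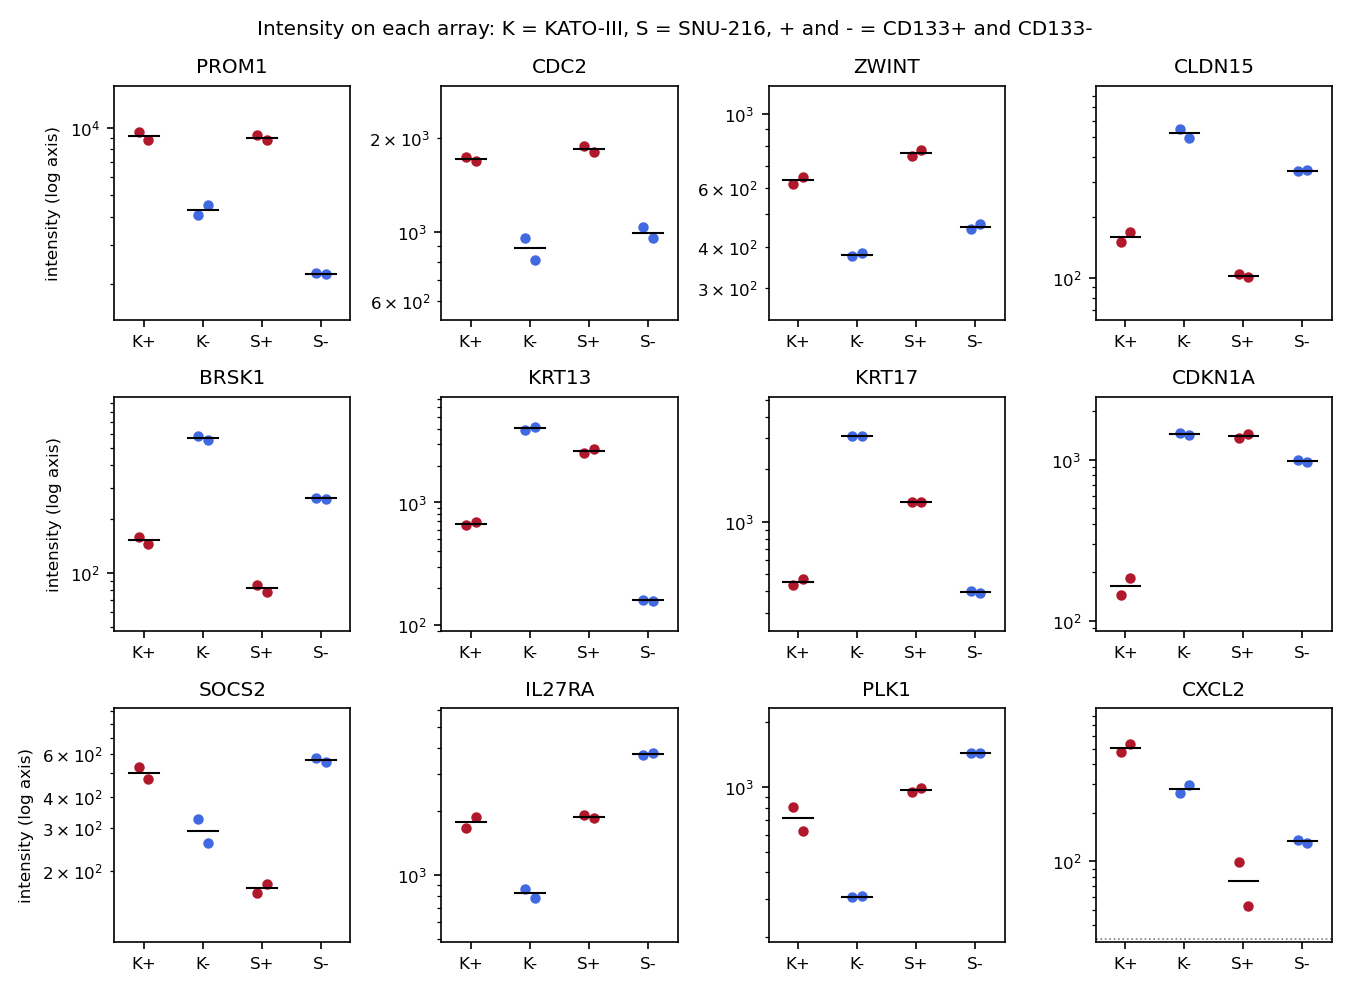
Intensity on each of the 8 arrays (log axis) for 12 genes, with K for KATO-III, S for SNU-216, + for CD133+ and - for CD133- cells; points are arrays, bars are the means of 2, and the dotted line is the floor. CDC2, ZWINT, CLDN15 and BRSK1 differ in the same direction by similar amounts in both lines, and KRT13, KRT17, CDKN1A, SOCS2, IL27RA and PLK1 differ in opposite directions.

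KRT13 and KRT17, keratins of stratified and injured epithelia, had the most negative interactions, and they went in opposite directions. KRT13 stood at 657 and 689.6 in CD133+ and 3918 and 4099 in the CD133- fraction of KATO-III, and at 2539 and 2751 in CD133+ and 161 and 157 in CD133- cells of SNU-216. CD133+ cells were thus below CD133- cells in KATO-III and above them in SNU-216, with no overlap. The log2 difference was -2.57 ± 0.06 in KATO-III and 4.05 ± 0.06 in SNU-216, an interaction of -6.63 ± 0.09 (adjusted p 3.71e-09, limma). KRT17 stood at 431 and 470.4 against 3103 and 3119 in KATO-III and at 1298 and 1292 against 399.5 and 390.3 in SNU-216, with an interaction of -4.50 ± 0.07 (adjusted p 3.71e-09). CDKN1A, the cell cycle inhibitor p21, was lower in the CD133+ cells of KATO-III, at 145 and 183 against 1460 and 1433, and higher in those of SNU-216, at 1372 and 1451 against 1005 and 969.8. The KATO-III CD133+ arrays stood apart from the other 6 arrays, which lay between 969.8 and 1460, and the interaction was -3.67 ± 0.13 (adjusted p 8.91e-07). PIK3IP1, an inhibitor of phosphoinositide 3-kinase, differed in KATO-III (-3.12) and was not called in SNU-216 (0.42). AHNAK2, a large scaffold protein, had -2.20 in KATO-III and 0.68 in SNU-216, where its arrays overlapped and it was not called.

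For the other genes with the most negative interactions, the CD133+ cells of SNU-216 were higher than its CD133- cells. PCDH7, a protocadherin, stood at 939 and 924 in CD133+ and 89.3 and 111 in CD133- cells of SNU-216 and at 496 and 454 against 752 and 775 in KATO-III, an interaction of -3.91 ± 0.15. PAPSS2, which makes the sulfate donor of sulfotransferases, had 2.67 in SNU-216 and -1.15 in KATO-III, and ZNF488, a zinc finger repressor, 2.59 and -0.87. The sodium-proton exchanger SLC9A2 had 3.17 in SNU-216 and was not called in KATO-III (0.12). TMEM45B, a transmembrane protein, had 1.56 in SNU-216, on intensities of at most 122, and -1.45 in KATO-III, on intensities of at least 2017. Further opposite genes lower in KATO-III and higher in SNU-216 were MFGE8, a secreted bridging protein for the uptake of dying cells (-1.53 and 1.22), the lysyl oxidase LOXL4 (-1.31 and 1.31) and the chondroitin sulfotransferase CHST13 (-1.21 and 1.42).

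On the positive side, RNASEH2B, RG9MTD1, SAP30, SOCS2, AVEN and PTMA rose in the CD133+ cells of KATO-III and were lower or not called in those of SNU-216. RNASEH2B, a subunit of the ribonuclease that removes ribonucleotides from DNA, stood at 574 and 446 in CD133+ and 77 and 79.2 in the CD133- fraction of KATO-III, and at 56.4 and 39.1 and 72.8 and 90.2 in SNU-216. The KATO-III CD133+ arrays were far above the other 6, and the interaction was 3.48 ± 0.36 (adjusted p 1.50e-04, limma). SOCS2, an inhibitor of cytokine signalling, stood at 532 and 475 against 324 and 259 in KATO-III and at 162 and 177 against 580.0 and 558 in SNU-216, opposite directions without overlap (0.79 ± 0.10 and -1.75 ± 0.10). IL27RA, a cytokine receptor subunit, was likewise opposite, at 1669 and 1886 against 864 and 784 in KATO-III and 1922 and 1862 against 3682 and 3787 in SNU-216. RG9MTD1, of mitochondrial tRNA processing (2.82 and 0.02), SAP30, of a histone deacetylase complex (2.15 and -0.57), and the apoptosis regulator AVEN (2.04 and -0.31) were called in KATO-III and not in SNU-216. The CD133- arrays of KATO-III lay near the floor for RG9MTD1, at 33.8 and 38.1. PTMA, the chromatin protein prothymosin alpha, had 2.42 in KATO-III and 0.26 in SNU-216 (not called), and near-identical copies of this gene make its value uncertain.

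The remaining genes of this group were called lower in SNU-216. SLC9A3R2, a scaffold of membrane transporters, had -1.89 in SNU-216 and 0.43 in KATO-III (not called). The small nucleolar RNA SNORD91A had -1.75 in SNU-216 and 0.97 in KATO-III, on intensities of at most 164. How far the amplification of the RNA captured it was not tested. The tRNA deaminase subunit ADAT3 had -1.54 and 0.68, and AKT1S1, an inhibitory subunit of mTORC1, -1.09 and 1.02. The acetylcholine receptor subunit CHRNB1, the chromatin reader ING2 and the repressor NACC1 were also opposite, with 0.91, 0.91 and 0.93 in KATO-III and -0.93, -0.89 and -0.84 in SNU-216.

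Genes that responded in 1 line are named by the largest change. In KATO-III the dynein light chain DYNLT3 rose by 2.00, the nuclear import factor KPNA3 by 1.75, the splicing regulator HNRPH1 by 1.73 and the chromatin reader YEATS4 by 1.71 on the log2 scale, with SNU-216 between 0.03 and 0.22. MXD4, an antagonist of MYC, was at 490.3 and 457 in CD133+ and 2815 and 2755 in the CD133- fraction of KATO-III and at 702 and 601 against 844 and 631 in SNU-216, where the fractions overlapped. The coagulation inhibitor TFPI (-2.07) and TMEM137 (-2.04) also fell in KATO-III, with 0.18 and 0.02 in SNU-216. In SNU-216 BAMBI, a pseudoreceptor that dampens TGF-beta signalling, was at 1485 and 1382 in CD133+ and 368 and 314 in CD133- cells, while all 4 KATO-III arrays lay between 13200 and 14510. FAM69A (2.72) and the myosin MYO1D (1.89) also rose there. FAM19A3 (-1.87), the opsin OPN3 (-1.51), HCP5 (-1.48) and the secreted protein OAF (-1.44) fell in SNU-216, with KATO-III between -0.22 and 0.17.

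Functions were described by 24 lists of genes, and counts are read against the shares over all genes given above. Most lists consist mainly of genes above the floor on all 8 arrays, of which 40.45% had a called interaction (19.2% positive, 21.3% negative). The called share was near or below this for replication (41.9%), heat shock (41.4%), actin (37%), oxidative phosphorylation (29.2%) and ribosomal protein genes (23.4%). It was little above it for stem cell markers (43.5%), histones (45.5%) and stress genes (45.7%). By line, KATO-III called 2891 of the 12240 genes above the floor on all 8 arrays higher and 3279 lower in CD133+ cells. SNU-216 called 2417 of them higher and 2409 lower. Where a member was at the floor in 1 line, medians were taken without it. Over the 16677 genes that exceeded the floor on some array of each line, the median CD133 effect was -0.03 in KATO-III and -0.01 in SNU-216 on the log2 scale, and the median interaction -0.02. Lists of the cell cycle, ribosome biogenesis, proteasome and NF-kB targets had more positive than negative interactions. Lists of histones, glycolysis, stress, immediate early, lysosomal and epithelial genes had more negative ones.

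**Figure D3:**
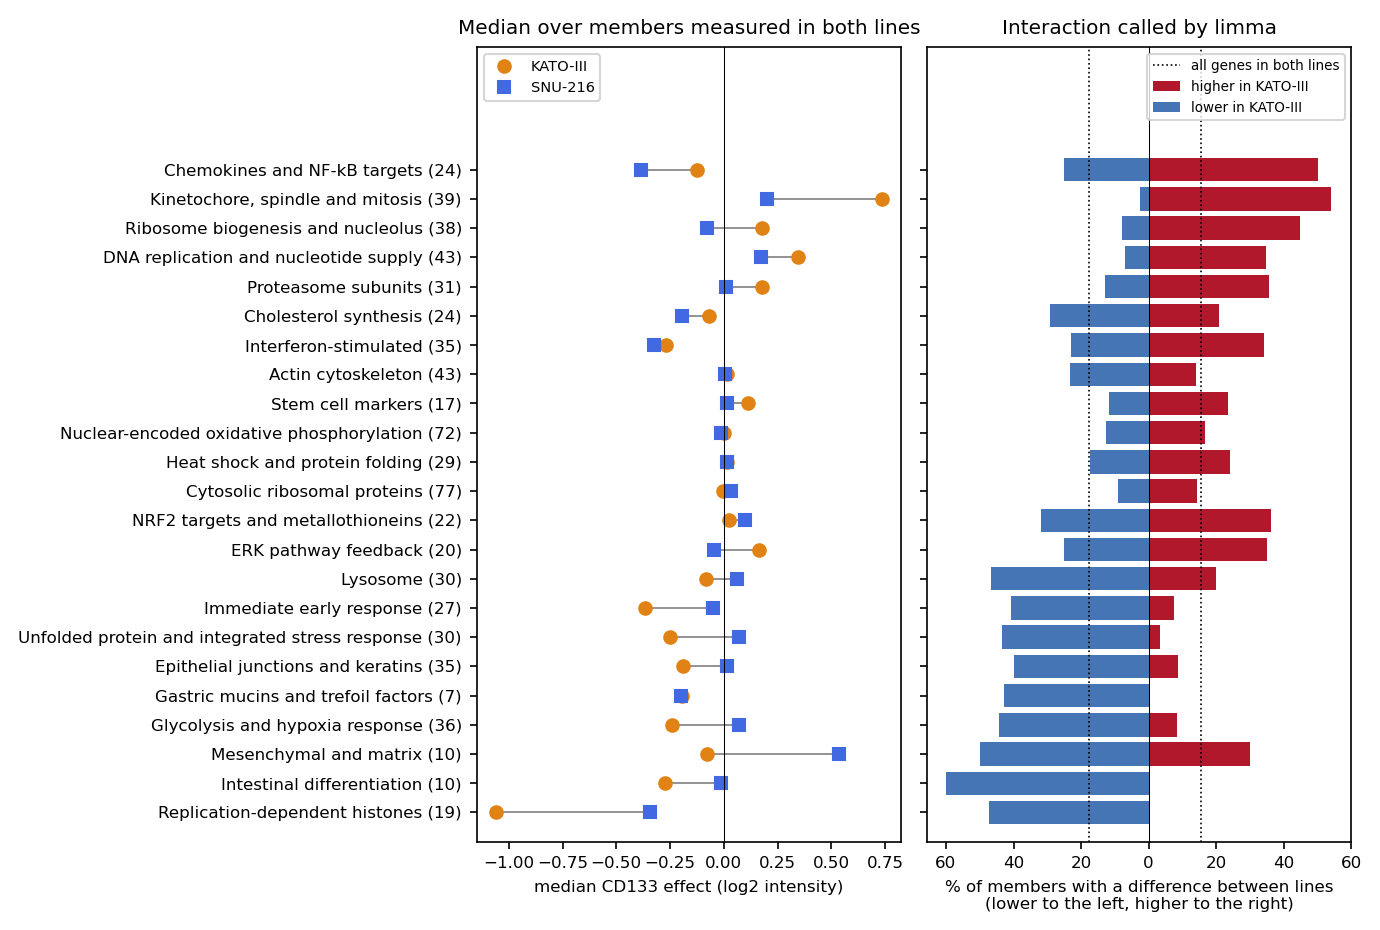
Left, median CD133 effect (log2 intensity) of each gene list in KATO-III (circles) and SNU-216 (squares), over the members above the floor on at least 1 array of each line, whose number follows the name. Right, percent of those members with a called interaction, positive to the right and negative to the left, beside the shares over the 16677 genes measured in both lines (dotted). Mitotic genes, with 21 of 39 positive and 1 negative, extend to the right, and the histones, with 9 of 19 negative and none positive, to the left.

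Among kinetochore, spindle and mitosis genes, more were called higher than lower in CD133+ cells of each line, and positive interactions outnumbered negative ones. Of 40 listed genes, 39 were tested. In KATO-III 30 were higher and 2 lower, in SNU-216 15 were higher and 3 lower, and the median effects were 0.73 and 0.20. The interaction was positive for 21 and negative for 1, CDC20, an activator of the anaphase-promoting complex (-0.42 and -0.07). PLK1, a kinase of mitotic entry, had the largest interaction and opposite directions, with 803 and 625 in CD133+ and 307 and 309.6 in the CD133- fraction of KATO-III and 951 and 989 and 1429 and 1434 in SNU-216. Its interaction was 1.76 ± 0.17 (adjusted p 9.87e-05, limma). The centromere genes CENPE (0.71 and -0.48) and CENPA (0.51 and -0.35) were opposite as well. Cyclin B1, CCNB1, stood at 1450 and 1350 against 517 and 596 in KATO-III and at 987 and 902 against 999 and 857 in SNU-216, where the fractions overlapped and no change was called. BUB1, a checkpoint kinase, was at 1551 and 1534 against 567 and 547 in KATO-III and 2166 and 2038 against 1685 and 1906 in SNU-216 (1.47 ± 0.08 and 0.23 ± 0.08). NDC80, which ties kinetochores to microtubules, had 1.81 ± 0.19 in KATO-III and 0.54 ± 0.19 in SNU-216, not called. The 6 alike members were CDC2, ZWINT, TOP2A (0.58 and 0.32), KNTC1 (0.33 and 0.20), CDC25C (0.32 and 0.23) and BUB3 (0.27 and 0.39).

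The promoters of these genes were read from RefSeq (GRCh38.p14), 250 bases before to 50 after the start. Cell cycle elements were counted in members with a positive interaction and in members without a called one. The CHR was searched as TTTGAA or TTCGAA and the element bound by NF-Y as CCAAT, on both strands, with no overlap between the 2 patterns. Of 32 mitotic genes with a promoter in the table, 21 held the CHR (65.6%) and 23 CCAAT (71.9%), against 11.6% and 36.9% of 10097 tested genes with a promoter and 16.6% and 35.7% of all 27305. The CHR was in 13 of 18 promoters of members with a positive interaction (72.2%) and in 7 of 13 of members without a called one (53.8%). CCAAT went the other way, in 12 of 18 (66.7%) with a positive interaction and in 10 of 13 (76.9%) of members without a called one. The latter are not all alike members, since a missing call does not show likeness, and CDC2 had no promoter to read. A match is a description of the letters and not of a bound site. Shown are 120 bases before to 30 after the start of ZWINT and TOP2A, which rose alike, and of PLK1, NDC80 and BUB1, which diverged, with CHR and CCAAT matches, on either strand, in capitals.
ZWINT: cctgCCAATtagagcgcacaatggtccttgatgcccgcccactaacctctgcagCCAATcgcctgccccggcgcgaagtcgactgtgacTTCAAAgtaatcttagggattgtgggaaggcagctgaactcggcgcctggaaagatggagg
TOP2A: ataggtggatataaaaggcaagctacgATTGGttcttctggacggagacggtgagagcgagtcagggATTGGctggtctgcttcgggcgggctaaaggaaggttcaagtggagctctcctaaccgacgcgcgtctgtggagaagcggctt
PLK1: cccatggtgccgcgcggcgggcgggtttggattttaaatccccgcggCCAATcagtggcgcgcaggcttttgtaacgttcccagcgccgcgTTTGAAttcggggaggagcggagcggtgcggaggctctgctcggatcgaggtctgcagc
NDC80: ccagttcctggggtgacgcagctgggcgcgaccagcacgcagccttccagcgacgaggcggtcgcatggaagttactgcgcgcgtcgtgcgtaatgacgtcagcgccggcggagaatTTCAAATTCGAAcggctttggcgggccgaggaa
BUB1: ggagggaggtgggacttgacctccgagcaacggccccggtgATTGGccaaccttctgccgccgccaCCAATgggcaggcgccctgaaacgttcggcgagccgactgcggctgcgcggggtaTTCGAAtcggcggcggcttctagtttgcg
They lie at chr10:56361230-56361379 (ZWINT, minus strand), chr17:40417867-40418016 (TOP2A, minus), chr16:23678769-23678918 (PLK1, plus), chr18:2571437-2571586 (NDC80, plus) and chr2:110678034-110678183 (BUB1, minus). Both groups hold promoters with CHR and CCAAT together, as ZWINT, PLK1 and BUB1 show, while TOP2A had CCAAT alone and NDC80 the CHR alone in these windows. CCNB1, which diverged and is not printed, had 2 CCAAT matches and no CHR in the same window.

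**Figure D4:**
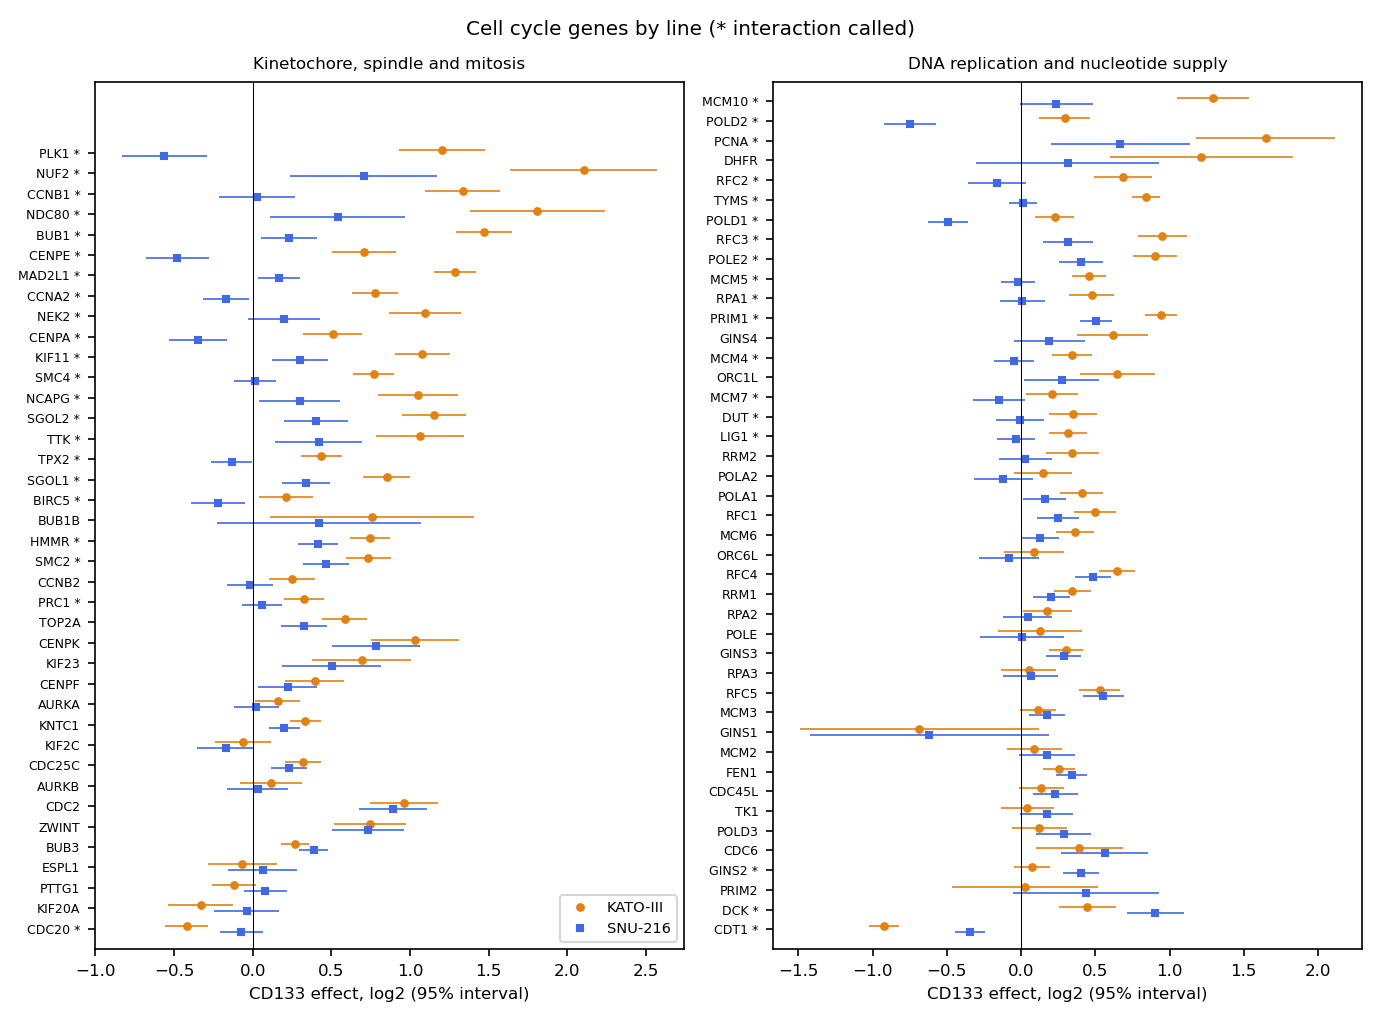
CD133 effect (log2 difference, CD133+ minus CD133-, with limma's 95% interval) of each mitotic (left) and DNA replication gene (right) in KATO-III (circles) and SNU-216 (squares), ordered by the interaction, with a called interaction starred. KATO-III lies to the right of SNU-216 for most genes, with PLK1 at 1.20 and -0.56, while CDC2, ZWINT, RFC5 and FEN1 have nearly equal effects.

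DNA replication and nucleotide supply genes were also called higher more often than lower in each line. All 43 were tested, and 28 were higher and 1 lower in KATO-III, 16 higher and 3 lower in SNU-216, with medians of 0.34 and 0.17. The interaction was positive for 15 and negative for 3. MCM10, a loader of replication forks, stood at 939 and 1056 in CD133+ and 450.5 and 367 in the CD133- fraction of KATO-III and at 488 and 449 and 415 and 379 in SNU-216 (1.29 ± 0.11 and 0.24 ± 0.11). PCNA, the sliding clamp, rose in both lines (1.65 ± 0.21 and 0.67 ± 0.21), and the polymerase delta subunit POLD2 was opposite (0.30 and -0.75), as was POLD1 (0.23 and -0.49). The clamp loader showed both patterns. RFC4 (0.65 and 0.49), RFC5 (0.53 and 0.56) and RFC1 (0.50 and 0.25) were alike, whereas RFC2 rose in KATO-III only (0.69 and -0.16). The other alike members were FEN1, GINS3 and RRM1. Negative interactions belonged to the licensing factor CDT1, lower in both lines (-0.92 and -0.34), to DCK, the kinase that salvages deoxycytidine, higher in both (0.45 and 0.91), and to GINS2, higher in SNU-216 (0.07 and 0.40). The E2F element, searched as TTTGGCGC or TTTCCCGC on both strands, was in 16 of 36 replication promoters (44.4%), against 3.6% of tested genes.

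Among replication-dependent histone genes, those called in CD133+ cells were nearly all lower, and more of them were called in KATO-III than in SNU-216. These genes pack newly made DNA, and their messages normally lack a poly(A) tail. How far the amplification of the RNA captured such messages was not tested, so the values may not follow all messages of these genes. Of 26 listed, 22 were tested, with 14 lower and 1 higher in KATO-III and 7 lower and none higher in SNU-216. Over the 19 members measured in both lines the medians were -1.06 and -0.34, and 9 had a negative interaction and none a positive one. HIST1H4H stood at 237 and 248 in CD133+ and 1272 and 1417 in the CD133- fraction of KATO-III and at 113 and 132 against 165 and 132 in SNU-216, where the fractions overlapped. Its interaction was -2.20 ± 0.18 (adjusted p 4.44e-05, limma). HIST2H2BE was lower in both lines (-1.57 ± 0.08 and -0.43 ± 0.08), and HIST1H3H in KATO-III (-1.48 ± 0.14, with -0.26 ± 0.14 in SNU-216). HIST1H2BG had -1.76 and -0.76, and its interaction was not called. Members of this family are near-identical in sequence, so their single values are uncertain.

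Among ribosome biogenesis genes, more were called higher than lower in KATO-III, and both directions were called in SNU-216. Of 38 tested nucleolar genes, 18 were higher and 3 lower in KATO-III and 7 higher and 10 lower in SNU-216, with medians of 0.18 and -0.08, and the interaction was positive for 17 and negative for 3. NOP58, a core protein of box C/D particles that methylate ribosomal RNA, was opposite, at 8040 and 7673 against 4226 and 4412 in KATO-III and 5132 and 4836 against 5835 and 5993 in SNU-216. GAR1, of the box H/ACA particles, was opposite as well (0.46 ± 0.04 and -0.57 ± 0.04). RRP9 (0.61 and -0.58) was called in KATO-III only, and TBL3 (0.44 and -0.62) in neither line, although its interaction was called. WDR12, of the large subunit pathway, rose alike (0.52 and 0.41), and NAT10, an RNA acetyltransferase, fell alike (-0.68 and -0.54). Of 77 cytosolic ribosomal protein genes, 11 had a positive and 7 a negative interaction, below the shares over all genes, and the medians were 0.00 in KATO-III and 0.03 in SNU-216. RPS28 had the largest interaction, at 4881 and 5158 against 2975 and 2206 in KATO-III and 2338 and 2447 against 4256 and 3877 in SNU-216. RPL23A (0.91 and 0.30), RPL23 (1.05 and 0.43) and RPL13 (0.01 and -0.51) followed, and many genes of this family have near-identical copies that make single values uncertain.

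Among proteasome subunits, more interactions were positive than negative. Of 31 proteasome subunits, 14 were higher and 7 lower in KATO-III, 5 higher and 2 lower in SNU-216, and 11 had a positive and 4 a negative interaction (medians 0.18 and 0.01). With a floor or an offset of 100, the replicate block, or genes above the floor on all 8 arrays, these counts were 11 and 7, and in a test against 1.5-fold 0 and 0. The regulatory subunit PSMD14 rose in both lines (1.43 ± 0.12 and 0.59 ± 0.12), PSMD1 was opposite (0.58 and -0.21), and PSMD3 (0.53 and -0.42) and the core subunit PSMA2 (0.61 and -0.15) rose in KATO-III without a call in SNU-216. Of 72 nuclear-encoded oxidative phosphorylation genes, 12 had a positive and 9 a negative interaction (29.2% called), with medians of 0.00 and -0.01. This lay below the 40.45% of all genes above the floor on all 8 arrays. NDUFC1, of complex I, stood at 4905 and 4867 in CD133+ and 1591 and 1602 in the CD133- fraction of KATO-III and at 1894 and 1802 and 2328 and 2398 in SNU-216, opposite directions without overlap. Within complex II, SDHD had a positive interaction (1.40 ± 0.24) and SDHC a negative one (-0.96 ± 0.08). ATP5G2, of the ATP synthase ring, was opposite (-0.64 and 0.48), while the electron carrier CYCS fell alike (-0.63 and -0.63) and NDUFA6 rose alike (0.40 and 0.48). Of 29 heat shock and folding genes, 7 had a positive and 5 a negative interaction (41.4% called), near that same share. The chaperonin subunits CCT6A (1.22 and -0.24) and TCP1 (1.38 and 0.07) rose in KATO-III only, and CCT8 (0.43 and 0.25) and CCT2 (0.24 and 0.35) alike. CHORDC1, a partner of HSP90, rose in both (1.47 and 0.65) and the collagen chaperone SERPINH1 was opposite (-0.31 and 0.39).

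Immediate early genes, which are switched on within minutes of a stimulus, were called lower more often than higher in the CD133+ cells of each line. Of 28 tested, 16 were lower and 3 higher in KATO-III and 8 lower and 4 higher in SNU-216, and the interaction was negative for 11 and positive for 2. FOSB stood at 740.2 and 773 in CD133+ and 5028 and 5114 in the CD133- fraction of KATO-III and at 581 and 568 and 729 and 679.8 in SNU-216. It was lower in both lines, by -2.75 and -0.29 on the log2 scale, an interaction of -2.45 ± 0.07 (adjusted p 2.57e-07, limma). The phosphatase DUSP1 stood at 1232 and 1339 against 4263 and 4616 in KATO-III and at 3478 and 3756 against 3132 and 3570 in SNU-216, where the fractions overlapped. JUN followed, with -1.49 ± 0.05 and 0.11 ± 0.05. CTGF, a matricellular target of YAP, was opposite (-0.37 and 1.29), while KLF2 (-0.63 and -0.78) and TRIB1 (-0.65 and -0.49) fell alike.

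Among unfolded protein and integrated stress response genes, more were called lower than higher in KATO-III and more higher than lower in SNU-216. Of 35 tested, 16 were lower and 5 higher in KATO-III, 3 lower and 9 higher in SNU-216, and 14 had a negative and 2 a positive interaction. ATF3 was at 506 and 459 in CD133+ and 969.5 and 882 in the CD133- fraction of KATO-III and at 469.5 and 398 and 299 and 314 in SNU-216, opposite directions without overlap. DDIT3, the stress factor CHOP, had -0.82 ± 0.08 and 0.33 ± 0.08, and EDEM1, which sorts misfolded glycoproteins for degradation, -0.73 ± 0.06 and 0.34 ± 0.06. NUPR1 was lower in KATO-III (-2.06 ± 0.24) and near the floor in SNU-216, at most 68.6. The chaperone HSPA5 (BiP) had -0.53 in KATO-III and 0.09 in SNU-216. XBP1 (0.18 and 0.20) and the amino acid transporter SLC7A5 (-0.32 and -0.25) were alike.

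Among glycolysis and hypoxia response genes, more were called lower than higher in KATO-III, and more higher than lower in SNU-216. Of 39 tested, 17 were lower and 5 higher in KATO-III, 4 lower and 10 higher in SNU-216, and 18 had a negative and 3 a positive interaction. Over the 36 measured in both lines the medians were -0.24 and 0.07. ALDOC, a fructose bisphosphate aldolase, stood at 2468 and 2547 in CD133+ and 4875 and 4915 in the CD133- fraction of KATO-III and at 2261 and 2376 and 1593 and 1667 in SNU-216. PFKFB4, which sets the rate of glycolysis, was at 505 and 549 against 1385 and 1430 in KATO-III, while its SNU-216 arrays lay between 1311 and 1336. NDRG1, a hypoxia-induced gene, was lower in both (-2.07 ± 0.10 and -0.90 ± 0.10). The hypoxia targets CA9, at 491 and 506 against 1391 and 1332, and VEGFA, at 167 and 176 against 478 and 535, fell in KATO-III and were below the floor on all SNU-216 arrays. Pyruvate kinase, PKM2, went the other way (0.78 and -0.24), and PGK1 rose alike (0.18 and 0.24). Of 24 cholesterol synthesis genes, 5 had a positive and 7 a negative interaction, with MVK (0.67 and -0.37) and INSIG1 (0.27 and -0.42) opposite and HSD17B7 alike (-0.67 and -0.49).

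Among chemokines and NF-kB targets, those called in CD133+ cells were mostly lower in each line. Of 29 tested, 11 were lower and 4 higher in KATO-III, 13 lower and 1 higher in SNU-216, and 15 had a positive and 6 a negative interaction. None was alike. LCN2, an iron-binding secreted protein, stood at 3515 and 3683 in CD133+ and 9288 and 9665 in CD133- cells of SNU-216 and between 16110 and 17610 on the KATO-III arrays. CXCL2, a neutrophil chemokine, was at 478 and 531 against 265 and 298 in KATO-III and 98.9 and 52.7 against 136 and 130.1 in SNU-216. Neither line called it alone (0.84 ± 0.36 and -0.88 ± 0.36), although its interaction was 1.72 ± 0.51 (adjusted p 0.0294, limma). CXCL1 had 0.55 and -0.87, with no call. In the other direction, BIRC3, an inhibitor of apoptosis, was opposite, at 202 and 204 against 454 and 419 in KATO-III and 3335 and 3579 against 2226 and 2272 in SNU-216. The feedback inhibitors NFKBIA (-0.70 and -0.07) and TNFAIP3 (-1.19 and -0.12) fell in KATO-III, and the subunits NFKB2 (0.37 and -0.68) and RELB (0.10 and -0.35) fell in SNU-216.

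Among interferon-stimulated genes, more were called lower than higher in CD133+ cells of each line. Of 40 tested, 16 were lower and 8 higher in KATO-III, 19 lower and 5 higher in SNU-216, and 13 had a positive and 8 a negative interaction. In a test against 1.5-fold the balance turned, with 1 positive and 5 negative. IFIT2, which binds viral RNA, was at 125 and 112 in CD133+ and 409 and 391 in the CD133- fraction of KATO-III and 4229 and 4148 and 2569 and 2079 in SNU-216, an interaction of -2.62 ± 0.16 (adjusted p 8.90e-06, limma). STAT2, of the interferon-activated transcription complex, was opposite (-0.86 ± 0.09 and 0.39 ± 0.09), and SAMD9 fell in KATO-III (-1.33, with -0.23 in SNU-216). IFI35 was at 437 and 430.5 against 1010 and 1005 in SNU-216 and overlapped between the fractions of KATO-III. The immunoproteasome subunits PSMB8 (-0.05 and -0.75) and PSMB9 (-0.09 and -0.89) and the regulator IRF1 (-0.40 and -1.16) were lower by more in SNU-216. HERC6 (-0.54 and -0.49) and PARP14 (-0.58 and -0.51) were among 4 alike members, all lower in both lines.

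**Figure D5:**
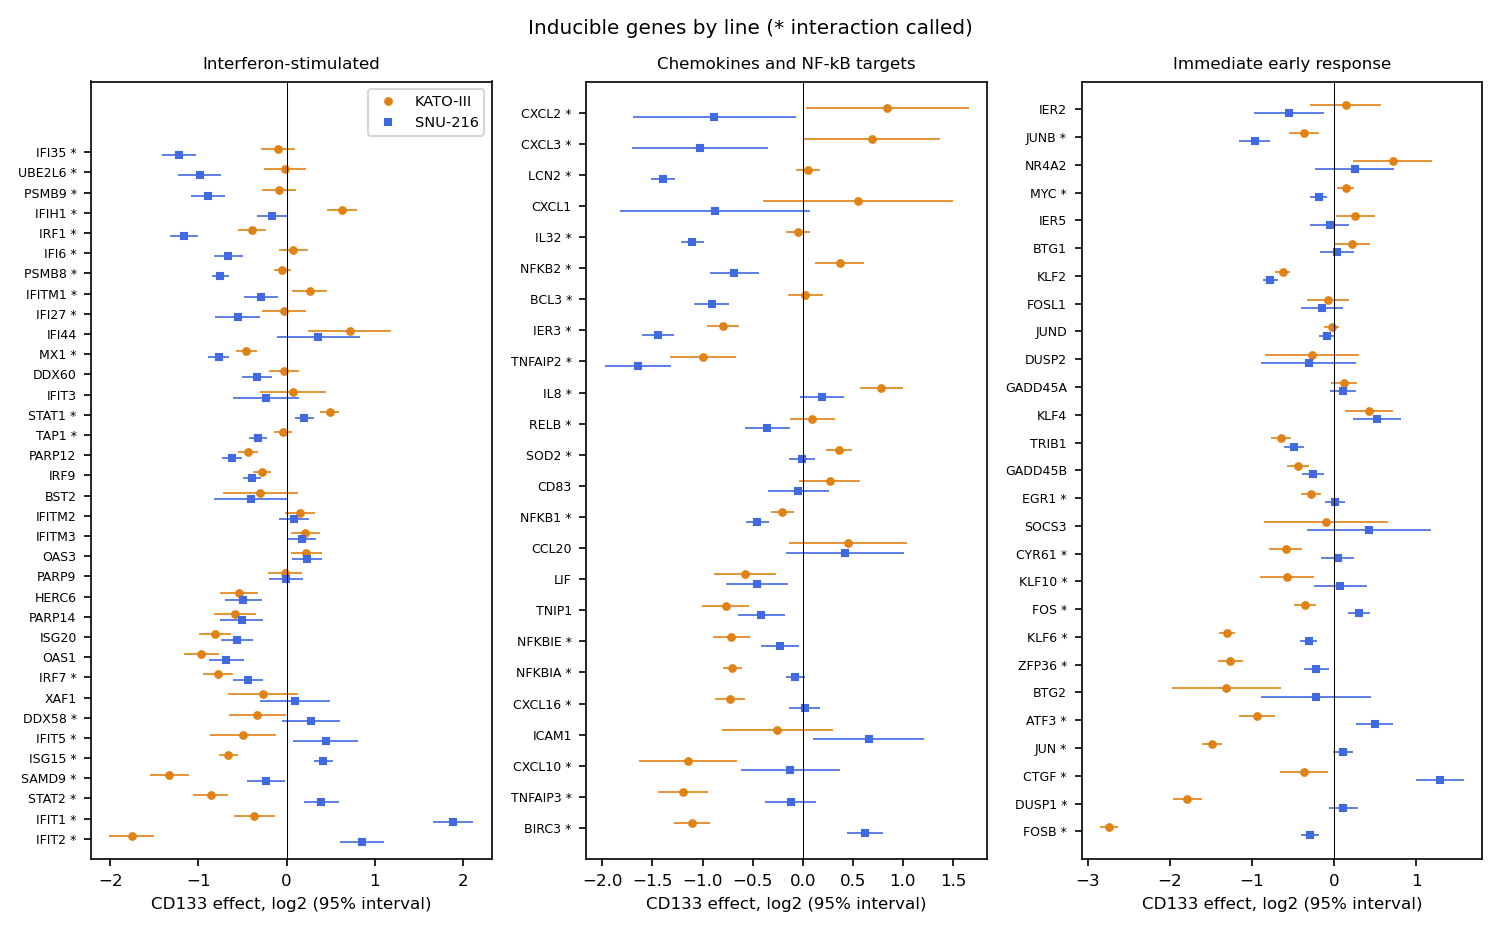
CD133 effect (log2 difference, CD133+ minus CD133-, with limma's 95% interval) of interferon-stimulated, NF-kB and immediate early genes in KATO-III (circles) and SNU-216 (squares), ordered by the interaction, with a called interaction starred. Genes at the top, such as IFI35 and LCN2, fell in SNU-216 alone, and genes at the bottom, such as FOSB at -2.75 and -0.29, fell by more in KATO-III or, as IFIT2 and BIRC3, rose in SNU-216.

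Among epithelial junction and keratin genes, more were called lower than higher in KATO-III, and both directions were called in SNU-216. Of 36 tested, 15 were lower and 5 higher in KATO-III, 8 lower and 11 higher in SNU-216, and 14 had a negative and 3 a positive interaction. Besides KRT17, KRT23 rose in SNU-216 (-0.20 ± 0.18 in KATO-III and 1.63 ± 0.18 in SNU-216). CGN, a tight junction scaffold, was at 989.6 and 1013 in CD133+ and 2720 and 2868 in the CD133- fraction of KATO-III, while the SNU-216 fractions differed by -0.09 ± 0.06, and KRT80 also fell in KATO-III (-1.07, with -0.04 in SNU-216). CDH1, E-cadherin, was opposite (-0.70 and 0.30). TJP3, of tight junctions, fell alike (-0.77 and -0.85), and PKP2, of desmosomes, rose alike (0.53 and 0.52).

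Many gastric mucin and intestinal genes were measured in KATO-III only, where more were called lower than higher in CD133+ cells. Of 23 tested genes of gastric mucins and trefoil factors, 13 were lower and 2 higher in KATO-III, and 15 were at the floor on every SNU-216 array. TFF1, a trefoil factor of surface mucous cells, stood at 1966 and 1876 in CD133+ and 7069 and 6207 in the CD133- fraction of KATO-III, MUC17, a membrane mucin, at 468 and 463 and 5126 and 5259, and REG4, a secreted lectin of the intestinal list, at 112 and 103 and 1477 and 1518. None of them was above the floor on any SNU-216 array, so no effect was measured there and the lines cannot be compared for them. Where both lines had a level, MUC1 fell alike (-0.25 and -0.38), and MUC20 was at 1164 and 1144 against 3034 and 3323 in KATO-III and 351 and 322 against 699.6 and 740.5 in SNU-216, lower in both (-1.46 ± 0.07 and -1.10 ± 0.07). Of 19 tested intestinal genes, 9 were lower and 2 higher in KATO-III, 1 lower and 3 higher in SNU-216, and 9 were at the floor in SNU-216. TSPAN8, a tetraspanin, rose in SNU-216 from 48.3 and 57.5 to 144 and 155 and lay between 13760 and 15230 on the KATO-III arrays. GPA33 fell in KATO-III (-1.08), on intensities of at most 118.

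Of 14 tested mesenchymal genes, of 32 listed, 6 had a negative and 3 a positive interaction. LUM, a matrix proteoglycan of fibroblasts, was at 64.4 and 91.6 in CD133+ and 743 and 782 in the CD133- fraction of KATO-III and at 60.8 and 61.3 in CD133+ cells of SNU-216, whose CD133- arrays were below the floor. ACTA2, smooth muscle actin, was at 598 and 580.0 in CD133+ cells of SNU-216 against 38.3 and 25.2 in CD133- cells, 1 of them below the floor, and overlapped between the fractions of KATO-III. TAGLN, an actin-binding protein of smooth muscle, was at 55.9 and 49.7 in CD133+ and 182 and 175 in the CD133- fraction of KATO-III and 6700 and 6746 and 5098 and 5164 in SNU-216, opposite and on very different levels. S100A4 was opposite as well (-0.53 ± 0.05 and 1.20 ± 0.05), and COL5A1 was called in neither line (-0.84 and -0.32). Of 46 actin cytoskeleton genes, 6 had a positive and 11 a negative interaction and 7 were alike, among them ARPC1B, of the Arp2/3 complex (-0.61 and -0.89), and the bundling protein PLS1 (0.42 and 0.33). GSN, which severs filaments, was at 76 and 79 against 232 and 251 in KATO-III and 184 and 187 against 101 and 109 in SNU-216. The tropomyosin TPM2 fell in KATO-III (-0.86 and 0.08).

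Of 23 tested stem cell markers, 11 were higher and 2 lower in KATO-III, 5 higher and 3 lower in SNU-216, and none was alike. Apart from PROM1, BMP4 fell in SNU-216 (2081 and 1889 against 3820 and 3523) and not in KATO-III (6345 and 6222 against 5602 and 5964), and ASCL2, an intestinal stem cell factor, fell in SNU-216 (0.10 and -0.34). MSI2, an RNA-binding protein, was called in neither line (0.13 and -0.20). ALDH1A1, an aldehyde dehydrogenase used as a stem cell marker, was at 2394 and 2219 in CD133+ and 5466 and 4936 in the CD133- fraction of KATO-III, and at 269.6 and 293 in CD133+ cells of SNU-216 against at most 33.5 in CD133- cells, at or near the floor. It was thus lower in 1 line and higher in the other. CD44 had 0.11 and -0.12, and SOX9 -0.02 and -0.07, with no call in either line.

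ERK feedback genes, targets that restrain the kinase pathway that induces them, were divided, with 7 positive and 5 negative interactions of 21. DUSP6 was at 3535 and 3343 in CD133+ and 1034 and 982 in the CD133- fraction of KATO-III and 138 and 122 and 107 and 100.1 in SNU-216, higher in both lines by different amounts (1.77 ± 0.08 and 0.32 ± 0.08). SPRY2 rose in KATO-III only (0.80 and 0.04), DUSP4 fell in SNU-216 only (0.16 and -0.50), and ETV5 was opposite (-0.20 and 0.56). NRF2 targets and metallothioneins divided too, with 8 positive and 9 negative interactions of 27. AKR1C3, an aldo-keto reductase, was at 3874 and 4407 in CD133+ and 12610 and 12830 in the CD133- fraction of KATO-III, and at 250.1 and 208 in CD133+ cells of SNU-216, whose CD133- arrays were below the floor. HMOX1, heme oxygenase, was at 278 and 292 against 609 and 604 in KATO-III and 676 and 721 against 486 and 517 in SNU-216, and thioredoxin reductase TXNRD1 was opposite in the same sense (-0.43 ± 0.04 and 0.68 ± 0.04). The malic enzyme ME1 rose in KATO-III (1.41 and 0.40), FTH1, ferritin heavy chain, fell in SNU-216 (0.04 and -0.95), and GSR, glutathione reductase, rose alike (0.67 and 0.46).

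Lysosomal genes had 14 negative and 6 positive interactions of 32. CD63, a tetraspanin of late endosomes, was at 3670 and 3017 in CD133+ and 5064 and 4597 in the CD133- fraction of KATO-III and 3303 and 3613 and 2246 and 2288 in SNU-216, opposite without overlap. The proteases CTSB (-0.82 and 0.24) and CTSC (0.62 and -0.74) were opposite in contrary senses. The sialidase NEU1 fell in KATO-III only (-1.03 and 0.03), and LAMP2 rose alike with PPT1 (0.26 and 0.41). Of 19 markers of leukocytes, fibroblasts and endothelium, 7 were tested. The summed intensity of 5 leukocyte markers was 862.6 to 906.4 in CD133+ and 1276 to 1332 in the CD133- fraction of KATO-III, and 153 to 169.7 in CD133+ and 384 to 436 in CD133- cells of SNU-216, through CD14 and CD68, with PTPRC and CD3E below the floor throughout. LUM, given above, was the fibroblast gene that moved, while COL3A1, PDGFRB and THY1 were below the floor throughout, and the part of these markers in the results was not tested. CD68, which epithelial lines can express, was lower in the CD133+ cells of both lines, at 36.6 and 35.5 against 97.6 and 88.2 in KATO-III and 175 and 199 against 382 and 433 in SNU-216, and its interaction of -0.24 was not called. HBA2 was called in neither line (0.45 and 0.03).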

How the data were processed

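Total RNA of the sorted cells was hybridised to Illumina HumanHT-12 v3 arrays. The authors quantile-normalized the intensities, and the deposited values, read with BeadStudio per the labels, include ones below 0, as after background subtraction. They hold 1 value per gene symbol on a linear scale, for 34595 genes after 93 rows empty on every array were left out. The background method and the way probes were summarised per symbol are not given in the sources used here. Values below a floor, the size of the 1st percentile, were set to it, and log2 was taken. Genes exceeding the floor on 2 or more of 12 arrays (20147) were tested with limma 3.58.1 (R 4.3.3): 6 population means over 12 arrays, eBayes with an intensity trend, and Benjamini-Hochberg adjustment at 0.05 over all genes tested. Fold changes are bounds where a population was at the floor. The number of arrays limits precision. The steps were tested on simulated data, with 200 genes changed by 1 on the log2 scale for each kind of change. The rules classed 53% of alike, 66.5% of KATO-III only and 84.5% of opposite genes as such. Only 11674 genes, above the floor on all 12 arrays, were simulated. The alike genes of the data mostly changed by less than 1, with a median smaller change of 0.35. These rates therefore need not hold for the data.

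The gene lists and members were chosen with earlier results of these data known. The genes named were PROM1, the 10 largest interactions in each direction, the 8 alike and 6 opposite genes in each direction with the largest smaller change, the 4 largest genes of 1 line in each direction, and in each list the 4 largest interactions and 2 alike members, all above the floor on all 8 arrays, passing over symbols without a named gene. Further list members were chosen after their values were seen. Some genes that this rule names are not reported here. Alternatives were another floor, offset, centring, filter, model, replicate block, a test against 1.5-fold and leaving out each array. Replicate numbers did not pair the arrays. Figures and motif counts used Python 3.11.15, pandas 2.3.3 and matplotlib 3.10.9.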

Additional observations from a re-analysis of the deposited data

Results flagged for a closer look

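The difference between the lines was itself tested as the interaction, and limma called it for 6455 of 20147 genes. Those called here are the named genes, and list members with a called interaction are given with their lists above. PROM1 had -0.92 on the log2 scale, the CD133 effect of KATO-III minus that of SNU-216, as do all values here.

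The called genes with the largest positive interaction were RNASEH2B (3.48), RG9MTD1 (2.80), SAP30 (2.72), SNORD91A (2.72), SOCS2 (2.54), AVEN (2.36), SLC9A3R2 (2.32), ADAT3 (2.22), PTMA (2.16) and AKT1S1 (2.11), among named genes above the floor on all 8 arrays. Opposite genes with a positive interaction were also IL27RA (2.09), CHRNB1 (1.84), ING2 (1.80) and NACC1 (1.77).

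On the negative side stood KRT13 (-6.63), KRT17 (-4.50), PCDH7 (-3.91), PAPSS2 (-3.82), CDKN1A (-3.67), PIK3IP1 (-3.54), ZNF488 (-3.46), SLC9A2 (-3.05), TMEM45B (-3.01) and AHNAK2 (-2.88), and the opposite genes LOXL4 (-2.62), MFGE8 (-2.75) and CHST13 (-2.62).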

How the results depend on the processing

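A test against a change of 1.5-fold (limma's treat) left 485 positive and 744 negative interactions, 504 higher and 748 lower genes in KATO-III, 211 and 229 in SNU-216, and 11 opposite genes, and PROM1 had an adjusted p of 0.0329. It gives no value for the other classes. Under the other settings tried, these counts stayed within 1.5 times, alike genes running from 741 without a filter to 1244 with an offset of 100, and centring the arrays gave 3381 positive and 3154 negative interactions. With a floor of 100 the interaction of CD68, not called, turned from -0.24 to 1.13, since all its KATO-III arrays lie under that floor.

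Leaving out each array in turn gave 2582 to 2755 positive and 2944 to 3088 negative interactions, 675 to 725 alike, 813 to 880 opposite, 402 to 502 same-direction genes of different size (402 without the first CD133+ array of SNU-216), 1884 to 2152 KATO-III and 1111 to 1237 SNU-216 genes of 1 line. It gave 2943 to 3685 higher and 3216 to 4063 lower genes in KATO-III, and 2251 to 2870 and 2083 to 2726 in SNU-216. PROM1 ran from -0.99 to -0.84 (highest adjusted p 0.000786, limma). The lone array left in a population is assumed to vary like the others. Similar totals do not mean the same members. Whichever array was left out, several of the named alike genes left that class, though none changed direction.

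In the lists, the test against 1.5-fold left 6 positive and no negative mitotic, 2 and 0 replication, 2 and 0 ribosome biogenesis, 3 and 1 NF-kB, 1 and 9 glycolysis, 0 and 7 immediate early, 0 and 4 stress response, and 0 and 5 epithelial interactions. Besides interferon-stimulated genes, the balance of positive and negative turned in that test for cholesterol synthesis (1 and 0), stem cell markers (1 and 2) and oxidative phosphorylation (1 and 2). It also turned for ERK feedback (7 and 9 with a floor of 100), NRF2 targets (7 and 6 over genes above the floor on all 8 arrays, 9 and 8 with centred arrays or no trend), oxidative phosphorylation (8 and 9 without a filter, 9 and 10 without the second CD133- array of SNU-216) and ribosomal proteins (8 and 9 without the second CD133+ array of KATO-III, 6 and 7 without the first CD133- array of SNU-216).

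Arrays with the same replicate number did not deviate together (correlations of -0.00726 to 0.0663 over 6 pairs). With the replicate block there were 3009 positive and 3356 negative interactions, 879 alike and 1026 opposite genes. Genes near the floor have only bounds, and 2 arrays per population limit what small differences can be called.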
